A study of Mus musculus with 12 samples.

Results

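The cells described here are the efficient (Eff) intermediates of mouse reprogramming on day 6, d6_Eff, set against the Eff intermediates on day 3, d3_Eff. They were chosen by their labels alone and comprise 4 libraries, 2 of each day, of 12 in the series. Both populations were sorted by FACS after trypsin from cultures in ES media with dox and AA. Both carried SSEA1, a carbohydrate antigen found on pluripotent cells, and lacked Sca1, a surface protein of fibroblasts and of many progenitor cells. The other sorting marker changed between the days: d3_Eff cells were CD73+ and d6_Eff cells were EpCAM+, so the effects of time and of the gate cannot be told apart. All groups had the strain 129SV/Jae/C57BL6J. Beside them stand the inefficient (Ineff) cells of the same days and media, which were SSEA1+ and Sca1+ (CD73- on day 3, EpCAM- on day 6), mouse embryonic fibroblasts (MEF) in MEF media as the starting cells, and induced pluripotent stem cells (iPSC) in ES media as the end point, with 2 libraries each. The labels name neither the reprogramming factors nor how they were introduced. Nor do they tell if the 2 replicates came from different cultures or animals, so p-values measure the spread between these libraries, which may be technical.

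When fibroblasts are reprogrammed, they lose the gene expression of motile mesenchymal cells and join into epithelial colonies, a mesenchymal-to-epithelial transition. E-cadherin, claudins and keratins replace N-cadherin and vimentin, while Snail, Slug and Twist, transcription factors that repress E-cadherin, decline. The network of Nanog, Esrrb, Sall4 and their partners, which holds embryonic stem cells in the pluripotent state, is activated stepwise and late.

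Gene counts ran from 16255091 to 22527160 per library in the 4 Eff libraries, and levels are given as counts per 1000000 gene counts after TMM scaling (CPM). Reads outside genes made up 24.1% of uniquely placed reads in d6_Eff replicate 2 and 6.22% to 10.1% in the other 3 Eff libraries. MEF replicate 2, which enters the Eff comparison through the spread shared by all groups, stood further apart, with 47.2%. Both libraries are in the values below, and the leading counts are also given without each. Reads were counted without strand, so where Tmem54, Tnk1, Adh7, Prss12, Dlk2, Edn1, B4galnt3, Esrp1, Rbm47, Tbx3, Hook1, Krt8, Grhl2, Elf3, Nid2, Mcam, Tagln, Pitx1, Cebpd, Runx2, Runx1, Fgfr3, Wnt5a, Lef1, Epha1, Igf2, Cdkn1a, Pcgf5, Suv39h1, H19, Vcam1, Des, Olig1, Pou5f1, Sall4, Zfp296, Hoxa7, Lin28a, Cldn3, Prss8, Crb3 and Ovol2 overlap a gene on the opposite strand, the reads of both cannot be told apart.

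Epcam, which encodes an epithelial adhesion molecule, stood at 11.0 and 12.2 CPM on day 3 and 947 and 994 CPM on day 6, a log2 fold change of 6.39 ± 0.34 (SE; adjusted p = 5.98e-06 by edgeR's quasi-likelihood test, n = 2 against 2). Its day 6 mean was 263% of the iPSC mean. Ly6a, which encodes Sca1, fell from 84.1 and 80.2 to 16.2 and 8.52 CPM (log2 fold change -2.73 ± 0.32, adjusted p = 3.94e-04), although both populations were sorted as Sca1-. Nt5e, which encodes CD73, was not called and stood at 41.5 and 32.9 CPM on day 3 and 50.7 and 46.0 CPM on day 6 (adjusted p = 0.592), although CD73 was no part of the day 6 gate. Fut4 and Fut9, fucosyltransferases that can build SSEA1, were not called (adjusted p = 0.118 and 0.949). EpCAM was part of the gate on day 6 alone.

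Of 16240 genes tested, 688 were higher (4.24%) and 791 lower (4.87%) in d6_Eff than in d3_Eff at an adjusted p under 0.05, together 1479 genes (9.11%). Of the called genes, 620 were higher and 635 lower by more than 2-fold, and 260 were higher and 152 lower by more than 8-fold. The median log2 fold change over all genes was 0. Leaving out MEF replicate 2 gave 1308 higher and 1571 lower, which held 687 of the 688 and all 791 genes. Leaving out d6_Eff replicate 2 gave 366 higher and 291 lower, with 359 and 286 of them among the reported genes. Leaving out d3_Eff replicate 1 gave 346 and 357, d3_Eff replicate 2 gave 328 and 423, and d6_Eff replicate 1 gave 430 and 568. A lone library is then assumed to vary like the other groups. Below, a call is followed through these 4 refits, each without 1 Eff library, and the range of its adjusted p is given where a refit lost it.

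**Figure D1:**
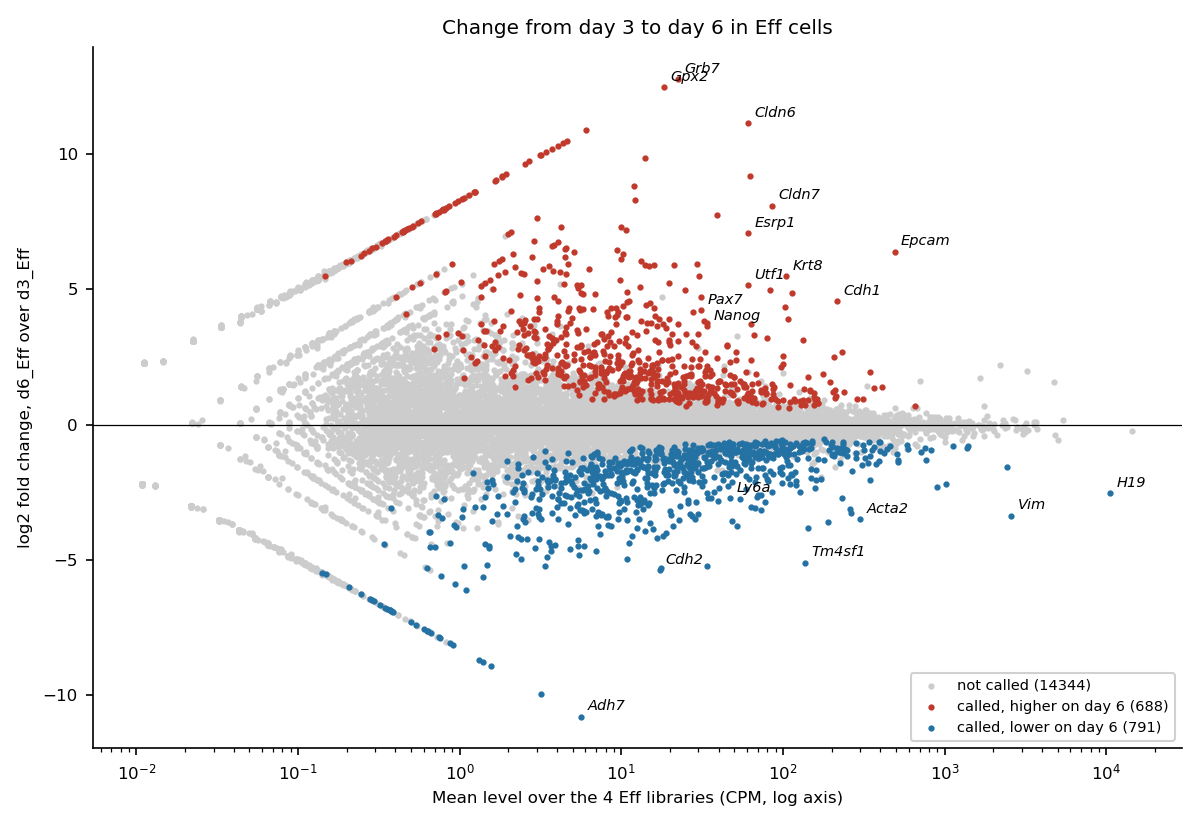
Mean level over the 4 Eff libraries in CPM (log axis) and log2 fold change of d6_Eff over d3_Eff for each gene tested that had counts in these libraries. Red and blue points are the 688 higher and 791 lower genes, and the diagonal lines of points are genes with no or few counts in 1 group, whose fitted fold changes are no bounds.

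The largest rises were in genes with few or no counts on day 3. Grb7, an adaptor of receptor tyrosine kinases, had no counts in d3_Eff and 41.02 and 48.6 CPM in d6_Eff, at least 632-fold higher (adjusted p = 2.18e-05). Gpx2, a glutathione peroxidase of epithelia, went from no counts to 37.1 and 36.1 CPM, at least 516-fold higher (adjusted p = 2.60e-04). Ap1m2, an epithelial subunit of a clathrin adaptor, went from 0.390 and 0 to 118 and 133 CPM (log2 fold change 9.18 ± 0.58, adjusted p = 1.30e-05). In each of these genes both day 6 libraries lay above both day 3 libraries. Rab25, a small GTPase of epithelial recycling endosomes, had 1 count in d3_Eff and 28.1 and 27.7 CPM in d6_Eff, a ratio of 1182 (95% counting interval 212 to 46721). Without counts on day 3 were also the homeobox gene Rhox6 (at least 171-fold higher), the membrane protease gene Hpn (130.0-fold), Tmem54 (123-fold), the prominin gene Prom2 (114-fold), the kinase gene Tnk1 (96.7-fold), the adhesion gene Ceacam19 (90.4-fold) and the ubiquitin ligase gene Cblc (88.8-fold), with each fold bounded from below by setting the day 3 group to 3 counts. Ceacam19 (adjusted p = 0.0243) kept its call in 0 of 4 refits (0.0815 to 0.112).

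The largest falls were mixed in kind. Adh7, a retinol-oxidising alcohol dehydrogenase, went from 12.8 and 9.83 CPM to no counts, at least 149-fold lower (adjusted p = 2.46e-04). Cdh2, which encodes N-cadherin, fell from 42.8 and 24.7 to 1.38 and 0.117 CPM (log2 fold change -5.39 ± 0.65, adjusted p = 4.27e-04). Tm4sf1, a tetraspan surface protein, fell from 285 and 248 to 10.8 and 4.58 CPM (log2 fold change -5.10 ± 0.49, adjusted p = 1.22e-04). The day 6 libraries lay below both day 3 libraries in all 3. The rest of the 12 largest falls were in the protease gene Prss12 (log2 fold change -5.31), Dlk2 (-5.24), the myelin gene Mobp (-5.23), the pepsinogen gene Pga5 (-4.95), Rin3 (-4.90), the transglutaminase gene Tgm3 (-4.84), the endothelin gene Edn1 (-4.69), the protease gene Adamts20 (-4.68) and the cadherin gene Cdh26 (-4.58). Adamts20 kept its call in 1 of 4 refits (0.0456 to 0.133).

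Epithelial genes rose together. Of 37 genes of epithelial junctions and keratins 25 rose and the other 12 did not pass the test (median log2 fold change 3.89). Of 12 epithelial regulators 8 rose and 4 did not pass (median 3.34). Without MEF replicate 2 the junction and keratin list had 28 higher and 2 lower and the regulators 9 higher, and without d6_Eff replicate 2, 21 and 8 rose.

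To show what lies at the start sites of genes that moved together, 3 promoters are printed. Snail, Slug and Zeb proteins bind the E-box CACCTG, and this motif was chosen after the calls were known. The 250 bases before the RefSeq start site (build GRCm38.p6) are given 5′ to 3′ on the gene's strand, with CACCTG, or its complement CAGGTG, in capitals. The window of Epcam lies on the plus strand at chr17:87635729-87635978, that of Cldn7 on the plus strand at chr11:69965171-69965420 and that of Krt8 on the minus strand at chr15:102004343-102004592.
Epcam: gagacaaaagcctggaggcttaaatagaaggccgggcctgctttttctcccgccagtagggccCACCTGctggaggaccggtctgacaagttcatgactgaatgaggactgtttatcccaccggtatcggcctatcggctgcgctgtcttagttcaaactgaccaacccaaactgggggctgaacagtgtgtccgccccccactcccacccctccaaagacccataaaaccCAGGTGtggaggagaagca
Cldn7: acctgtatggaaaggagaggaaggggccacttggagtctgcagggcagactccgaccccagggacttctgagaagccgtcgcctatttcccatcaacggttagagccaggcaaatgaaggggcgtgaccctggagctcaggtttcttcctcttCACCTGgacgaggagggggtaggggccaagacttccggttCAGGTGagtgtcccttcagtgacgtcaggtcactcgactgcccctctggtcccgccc
Krt8: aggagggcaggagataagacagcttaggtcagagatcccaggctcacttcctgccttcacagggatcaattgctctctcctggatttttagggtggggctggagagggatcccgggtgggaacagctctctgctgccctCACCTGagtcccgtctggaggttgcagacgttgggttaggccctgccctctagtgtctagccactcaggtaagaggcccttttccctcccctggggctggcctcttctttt
The Epcam and Cldn7 windows shown hold 2 matches each and the Krt8 window 1, and the 250 bases before another RefSeq start of Cldn7 held 0. In windows of 300 bases, from 250 before to 50 after a start, 16 of the 20 risen epithelial genes found in the RefSeq table held the motif on either strand (80.0%), against 6098 of 27025 genes in the whole table (22.6%). Of the same 20 genes, 4 held the motif CACGTG and 7 held TCCCGC, against 2187 and 5959 of the 27025. CACCTG was also held by 2 of the 4 other tested epithelial genes that had a window. Of 33 risen epithelial genes only 20 had a window (60.6%), too few for a statement on the group. A check over the group is thus void, and binding of Snail, Slug or Zeb was not tested. A match describes letters in a window.

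Cdh1, which encodes E-cadherin, the adhesion molecule of epithelial cells, stood at 20.3 and 14.5 CPM on day 3 and 394 and 431 CPM on day 6 (log2 fold change 4.57 ± 0.26, adjusted p = 7.85e-06). Its day 6 mean was 98.7% of the iPSC mean. Among the claudins, which form tight junction strands, Cldn7 rose from 0.434 and 0.832 to 168 and 175 CPM (log2 fold change 8.09 ± 0.49, adjusted p = 9.68e-06). Cldn6 had 2 counts on day 3 and 123 and 119.6 CPM on day 6, a ratio of 2571 (95% counting interval 711 to 21235). The day 3 and day 6 libraries did not overlap in these genes. Cldn3 and Cldn4 rose by 3.88 and 4.87 on the log2 scale, the tight junction gene Ocln by 5.08, the polarity gene Crb3 by 7.19, the membrane protease gene Prss8 by 7.28 and the protease inhibitor gene Spint1 by 4.34.

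Krt8, a keratin of simple epithelia, stood at 3.25 and 5.88 CPM on day 3 and 185 and 224 CPM on day 6 (log2 fold change 5.49 ± 0.37, adjusted p = 1.61e-05). Its partner keratin Krt18 rose from 2.17 and 2.13 to 33.5 and 30.5 CPM (log2 fold change 3.89 ± 0.33, adjusted p = 5.58e-05). Both keratins were low in both day 3 libraries and high in both day 6 libraries. Esrp1, a splicing factor that sets epithelial exon choice, stood at 1.04 and 0.728 CPM on day 3 and 114 and 129 CPM on day 6 (log2 fold change 7.08 ± 0.56, adjusted p = 3.96e-05). Grhl2, a transcription factor that activates junction genes, rose from 1.17 and 0.676 to 53.01 and 62.0 CPM (log2 fold change 5.93 ± 0.42, adjusted p = 2.16e-05). Elf3, an epithelial ETS factor, and Tfap2c, a factor of trophoblast and germ cells, rose from 1.47 and 1.25 to 13.5 and 14.04 CPM and from 2.99 and 2.86 to 32.4 and 37.6 CPM (adjusted p = 1.30e-04 and 2.52e-04). The regulator Ovol2 rose by 2.40 on the log2 scale.

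**Figure D2:**
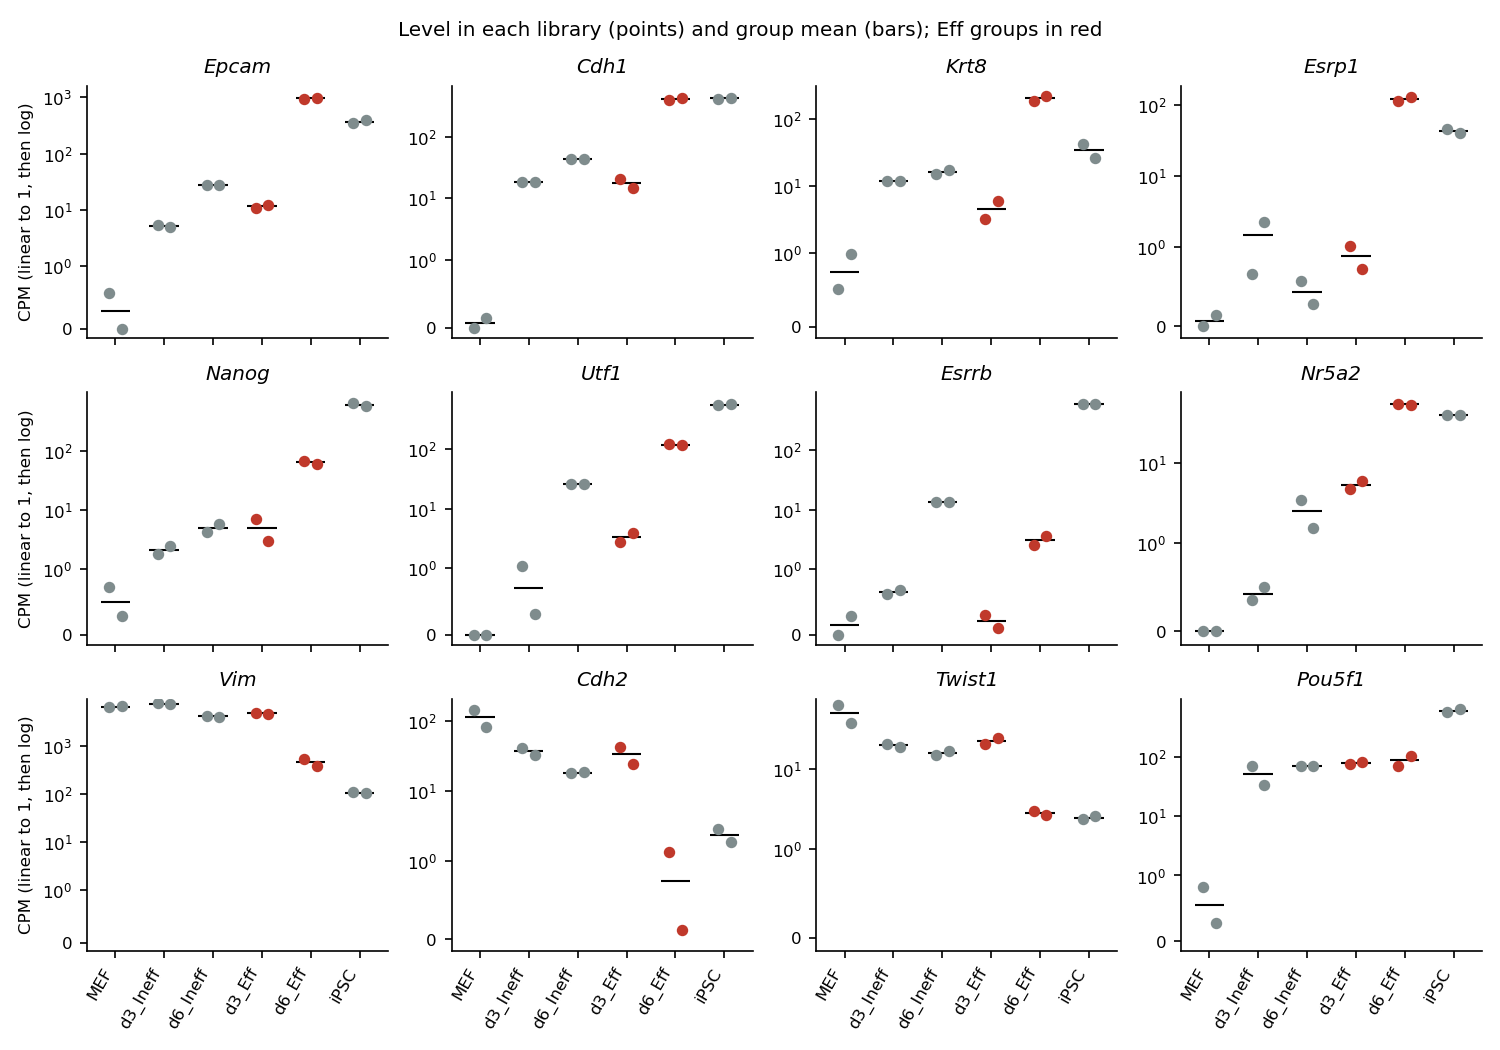
Level in CPM of 12 genes in each of the 12 libraries (points; the axis is linear up to 1 CPM and logarithmic above), with the group mean as a bar and the Eff groups in red. Epcam, Krt8 and Esrp1 stand higher in d6_Eff than in iPSC, Nanog, Utf1 and Esrrb stand lower, and the Pou5f1 values of the 2 Eff groups overlap.

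Genes of mesenchymal cells fell over the same days. Of 9 transcription factors of the epithelial-to-mesenchymal transition (EMT) 3 fell (median log2 fold change -2.58). Of 25 genes of the mesenchymal surface and cytoskeleton 11 fell and 1 rose (median -1.38), and of 12 contractile genes 8 fell (median -1.94). Of these lists, 2, 7 and 5 members fell without d6_Eff replicate 2, and 5, 16 and 9 fell without MEF replicate 2. In bulk samples, fewer cells of a type and less RNA per cell cannot be told apart.

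Prrx1, a homeobox factor of limb mesenchyme, stood at 139 and 102 CPM on day 3 and 16.9 and 11.5 CPM on day 6 (log2 fold change -3.08 ± 0.26, adjusted p = 5.58e-05). Twist1, a repressor of E-cadherin, fell from 20.6 and 24.7 to 2.98 and 2.70 CPM (log2 fold change -2.99 ± 0.30, adjusted p = 1.61e-04). The days did not overlap in either gene. Snai2, which encodes Slug, was low on both days, at 2.69 and 0.884 CPM on day 3 and 0.223 and 0 CPM on day 6 (adjusted p = 0.0355), and kept its call in 1 of 4 refits (0.0354 to 0.257).

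Vim, which encodes the intermediate filament protein vimentin, fell from 4877 and 4586 to 540.4 and 376 CPM (log2 fold change -3.37 ± 0.24, adjusted p = 2.21e-05), and its day 6 mean was 432% of the iPSC mean. Axl, a receptor tyrosine kinase, fell from 227 and 209 to 39.6 and 37.1 CPM (log2 fold change -2.51 ± 0.18, adjusted p = 2.08e-05). Anxa3, an annexin, fell from 453 and 485 to 55.1 and 51.3 CPM (log2 fold change -3.14 ± 0.31, adjusted p = 1.46e-04). All 3 were lower in both day 6 libraries than in either day 3 library. The calcium-binding protein gene S100a4, the caveolin gene Cav1 and the hyaluronan receptor gene Cd44 fell by 2.68, 2.07 and 1.85 on the log2 scale. Mcam, an adhesion molecule of vessel walls, was the member that rose, from 63.7 and 52.98 to 170.2 and 155 CPM (adjusted p = 0.00432), with a call in 3 of 4 refits (0.0220 to 0.0597).

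Among contractile genes, Acta2, smooth muscle actin, stood at 585 and 522 CPM on day 3 and 68.2 and 29.8 CPM on day 6 (log2 fold change -3.49 ± 0.43, adjusted p = 5.23e-04). Tagln, an actin-binding protein of smooth muscle, fell from 435 and 515 to 58.8 and 39.5 CPM (adjusted p = 7.02e-04) and Actg2, another smooth muscle actin, from 398 and 404 to 65.0 and 57.7 CPM (adjusted p = 3.95e-05). Each was lower in both day 6 libraries.

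Of 20 collagen genes 6 fell (median log2 fold change -0.58), 1 without d6_Eff replicate 2, and 10 fell and 2 rose without MEF replicate 2. Col6a1, a chain of collagen VI, stood at 272 and 262 CPM on day 3 and 23.1 and 15.0 CPM on day 6 (log2 fold change -3.81 ± 0.51, adjusted p = 9.21e-04). Col5a3 and Col8a1 (adjusted p = 0.0167 and 0.0229) kept their calls in 0 and 1 of 4 refits (0.0536 to 0.124 and 0.00809 to 0.156). Of 36 other matrix genes 11 fell and 3 rose, 2 and 1 without d6_Eff replicate 2. The proteoglycan gene Vcan fell from 17.8 and 12.6 to 1.74 and 1.06 CPM and the elastic fibre gene Fbln5 from 143 and 99.5 to 28.4 and 11.0 CPM (adjusted p = 7.82e-04 and 0.00151). The basement membrane gene Nid2 fell from 161 and 111 to 20.9 and 16.7 CPM (adjusted p = 0.00706), with a call in 3 of 4 refits (0.0223 to 0.0738).

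Of 34 transcription factors that pattern mesenchyme 11 fell (median log2 fold change -0.51), 4 without d6_Eff replicate 2. Pitx1, a hindlimb factor, fell from 22.9 and 25.7 to 2.63 and 4.05 CPM (adjusted p = 3.75e-04). Ebf1, a factor of adipose and B cells, fell from 13.0 and 10.9 to 2.14 and 1.35 CPM (adjusted p = 7.17e-04). Day 6 lay below day 3 in both.

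Of 35 Hox genes, which mark position along the body and limbs, 4 fell (median log2 fold change -0.65), 2 without d6_Eff replicate 2. In the Hox list 11.4% were called, against 9.11% of all genes tested. Hoxd13 and Hoxa13, genes of the distal limb, fell from 85.0 and 72.0 to 22.9 and 12.7 CPM and from 8.76 and 5.46 to 1.25 and 0.822 CPM (adjusted p = 5.64e-04 and 0.00244). Hoxd12 and Hoxa7 (adjusted p = 0.0206 and 0.0273) kept their calls in 1 and 0 of 4 refits (0.0314 to 0.152 and 0.0693 to 0.213). Hoxa10, at 41.2 and 37.3 CPM on day 3 and 32.1 and 30.8 CPM on day 6, was not called (adjusted p = 0.472), and its iPSC mean was 0.119 CPM. Hoxa9, at 34.8 and 29.7 CPM on day 3 and 25.2 and 19.1 CPM on day 6, was not called either (adjusted p = 0.649), with an iPSC mean of 0.592 CPM.

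**Figure D3:**
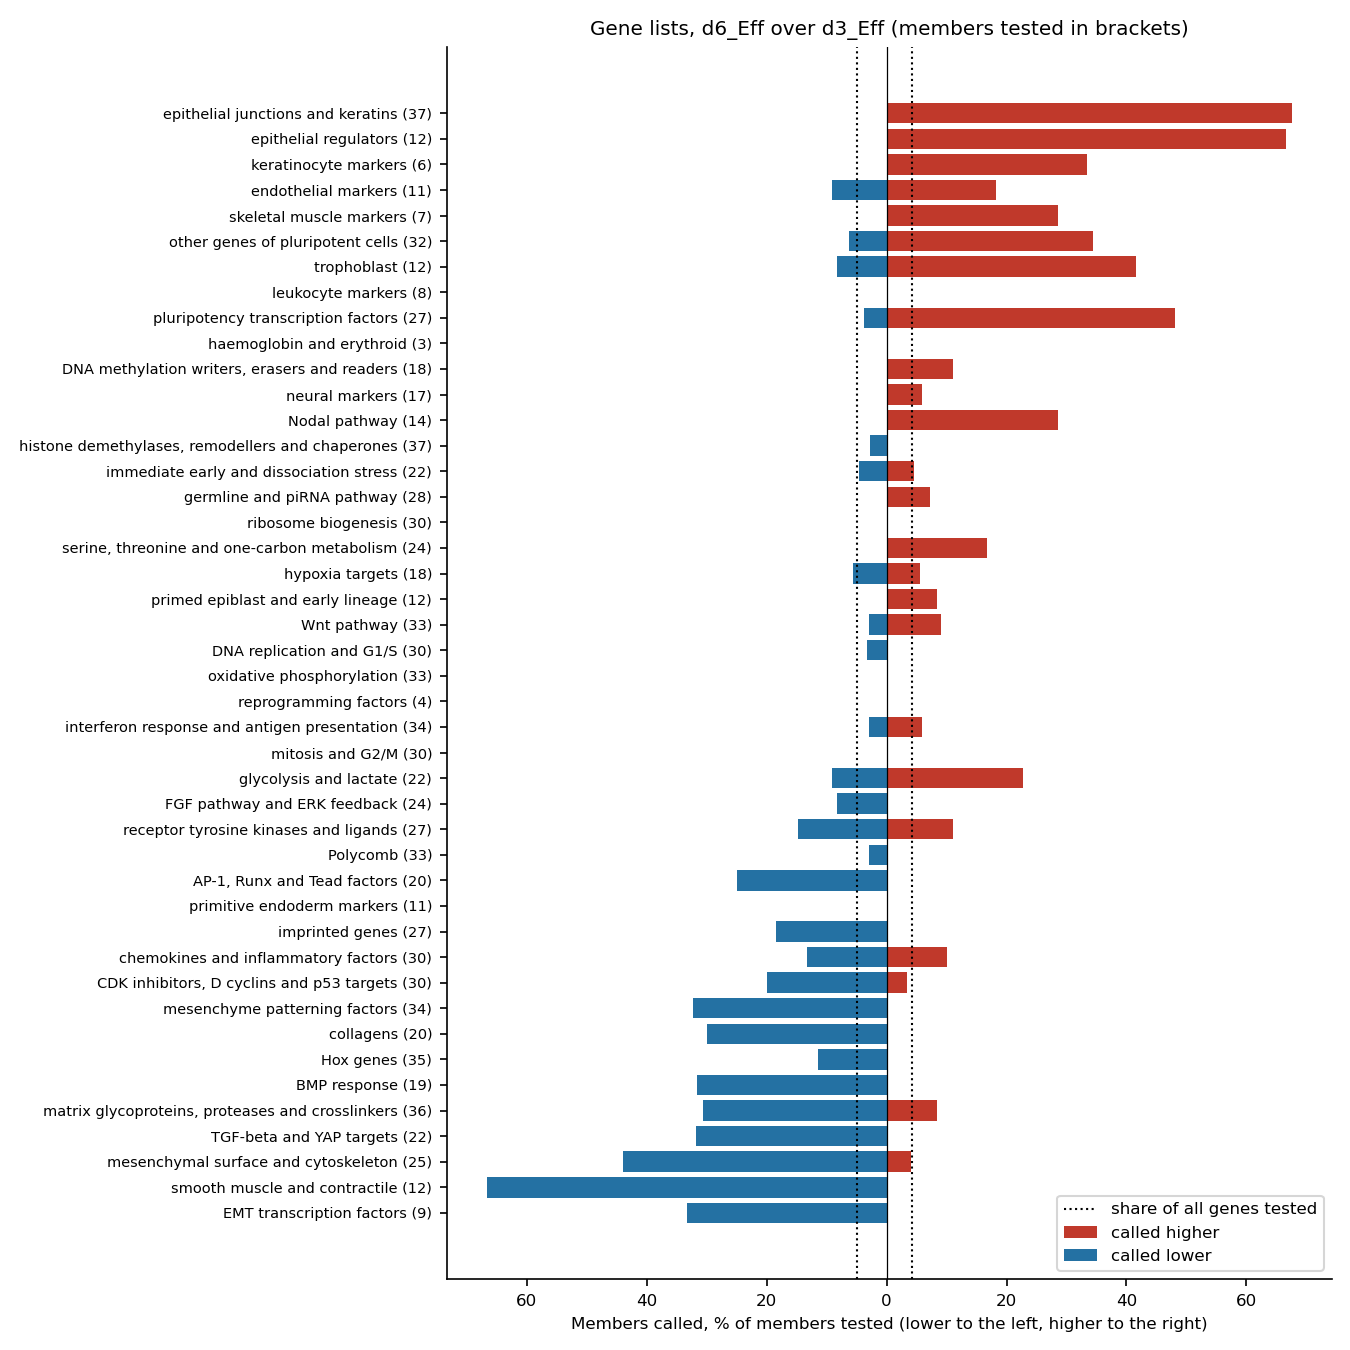
Share of the tested members of each gene list called higher (to the right) or lower (to the left) in d6_Eff than in d3_Eff, in % of members tested. Dotted lines mark the shares over all genes tested, 4.24% higher and 4.87% lower.

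Part of the pluripotency network rose. Of 27 pluripotency transcription factors 13 rose and 1 fell (median log2 fold change 0.76). Of 32 other genes of pluripotent cells 11 rose and 2 fell (median 1.11). Of these lists, 9 and 7 members rose and 0 and 0 fell without d6_Eff replicate 2, and 13 and 13 rose without MEF replicate 2. Utf1, a chromatin-associated factor, stood at 2.73 and 3.90 CPM on day 3 and 121 and 114 CPM on day 6 (log2 fold change 5.16 ± 0.36, adjusted p = 3.95e-05). Nanog, a homeobox factor central to the network, rose from 7.02 and 2.96 to 67.5 and 58.4 CPM (log2 fold change 3.65 ± 0.37, adjusted p = 1.71e-04). Mycn, a paralogue of Myc, rose from 15.3 and 12.3 to 86.6 and 91.3 CPM (log2 fold change 2.69 ± 0.28, adjusted p = 2.03e-04). The days did not overlap in these 3.

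Nr5a2, a nuclear receptor that can replace Oct4 in reprogramming, rose from 4.64 and 5.98 to 55.1 and 53.4 CPM (log2 fold change 3.35 ± 0.36, adjusted p = 3.43e-04). Sall4, a zinc finger factor, rose from 0.694 and 1.09 to 16.6 and 18.8 CPM (log2 fold change 4.31 ± 0.48, adjusted p = 2.63e-04). The zinc finger genes Zscan10 and Zfp296 rose from 3.34 and 2.60 to 15.1 and 17.1 CPM and from 8.37 and 10.9 to 29.5 and 26.9 CPM (adjusted p = 0.00211 and 0.00249). All 4 were higher in both day 6 libraries. Esrrb and Zfp42, of naive pluripotency, rose to 2.49 and 3.64 and to 1.83 and 3.52 CPM (adjusted p = 6.65e-04 and 0.00168), Esrrb to 0.512% of the iPSC mean.

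Other risers lost their calls in some of the 4 refits. Prdm14, a germ cell and naive pluripotency factor, went from no counts to 0.223 and 0.764 CPM, at least 6.95-fold higher (adjusted p = 0.0376), with a call in 1 (0.0206 to 0.149). Nr0b1 (log2 fold change 1.07, adjusted p = 0.00646) was called in 2 (0.0377 to 0.0854) and Tfcp2l1 (1.58, 0.0238) in 0 (0.0868 to 0.182). Tbx3, which also patterns limb mesenchyme, was the factor that fell, from 3.17 and 2.34 to 0.223 and 0 CPM (adjusted p = 0.0116), with a call in 2 (0.0232 to 0.0794). Klf2 and Klf5 were not called (adjusted p = 0.146 and 0.517).

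Among the other genes of pluripotent cells, Hook1, a microtubule linker, rose from 7.37 and 6.19 to 57.4 and 45.0 CPM (log2 fold change 2.91 ± 0.27, adjusted p = 9.94e-05). Dppa5a, an RNA-binding protein of embryonic stem cells, rose from 0.0867 and 0.208 to 4.45 and 7.34 CPM (adjusted p = 3.34e-04), to 0.135% of the iPSC mean. Ooep, an oocyte and embryo protein, went from no counts to 1.74 and 2.00 CPM, at least 26.3-fold higher. All 3 were separated between the days. Lin28a, which blocks let-7 maturation, rose by 4.72 on the log2 scale.

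The genes of the usual reprogramming factors were not called. Pou5f1, which encodes Oct4, stood at 77.1 and 83.0 CPM on day 3 and 72.3 and 104 CPM on day 6 and Sox2 at 241 and 230.2 CPM on day 3 and 244 and 219 CPM on day 6 (adjusted p = 0.909 and 1.00). Klf4 stood at 264 and 223 CPM on day 3 and 223 and 255 CPM on day 6 and Myc at 303 and 257 CPM on day 3 and 240.4 and 238 CPM on day 6 (adjusted p = 1.00 and 0.677). By edgeR 0 of these 4 were called, 0 at an unadjusted p under 0.05, and 0 by DESeq2 or limma-voom. Native and any introduced copies cannot be separated in these counts.

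**Figure D4:**
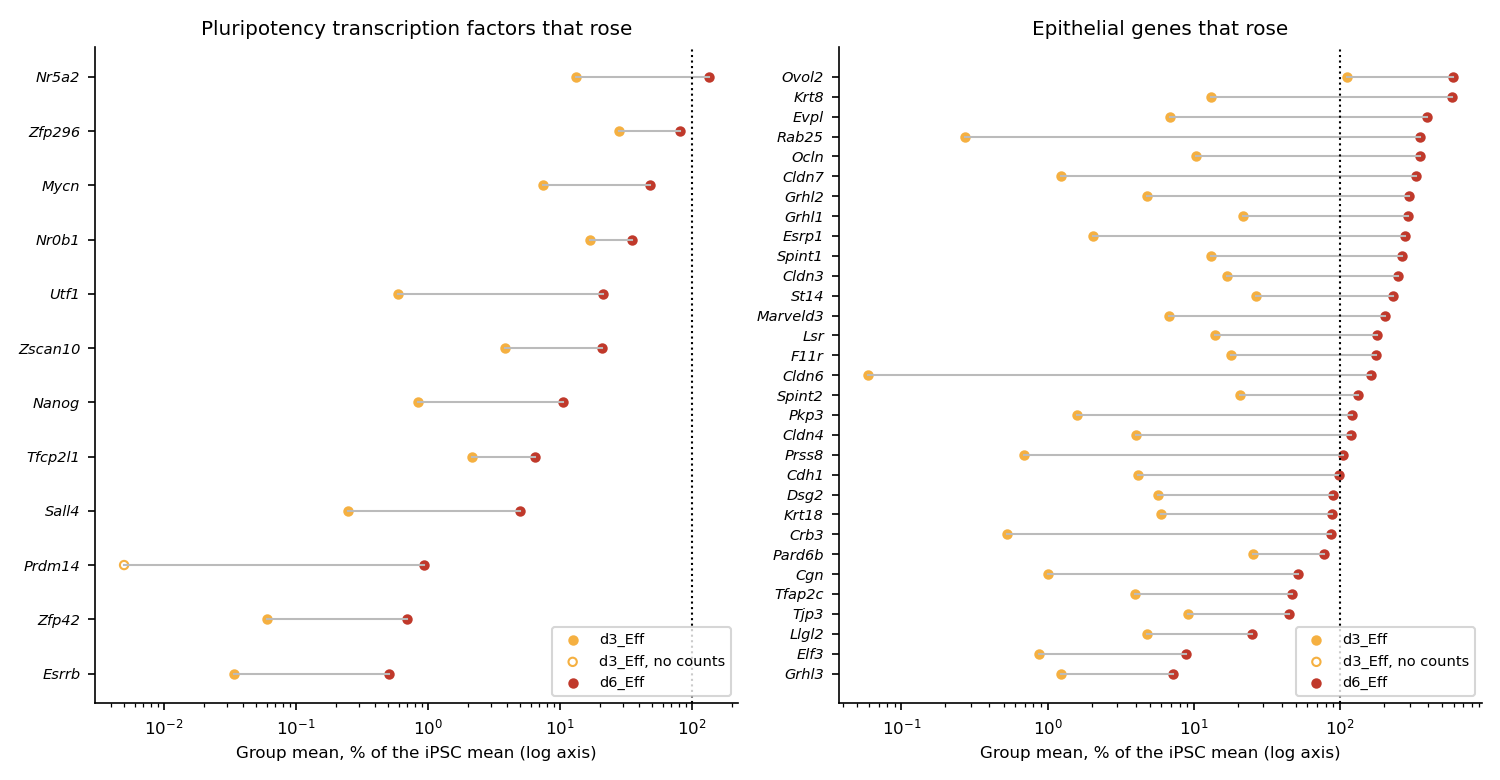
Group means of d3_Eff and d6_Eff in % of the iPSC mean, on a log axis, for 12 pluripotency factors and 31 epithelial genes with iPSC counts that rose; an open point at the left edge marks no counts on day 3. On day 6, 20 of the epithelial genes drawn and 1 pluripotency factor lie beyond 100%.

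Set beside iPSC, the 2 kinds of risen genes stood at different levels. Of the 13 risen pluripotency factors, 1 (Nr5a2, 135%) was above the iPSC mean on day 6 and 5 were under 10% of it, with a median of 21.0% and a range from 0.512% (Esrrb) to 135%. Of the 33 risen epithelial genes 32 had counts in iPSC, and 21 of these were above the iPSC mean, with a median of 153% and a range from 7.26% (Grhl3) to 593% (Ovol2). Krt8 stood at 589.7%, Esrp1 at 281% and Nanog at 10.6% of iPSC. The genes were chosen for their rise, and no test was made of these shares.

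The Eff calls can be set beside those of iPSC against MEF, since the comparisons share no library. Between these end points 4221 genes had a higher level in iPSC (26.0%) and 4336 a lower one (26.7%). Of the 688 genes that rose in Eff cells, 447 were higher in iPSC (65.0% of the 688 and 10.6% of the 4221) and 90 lower (13.1%). Of the 791 that fell, 610 were lower in iPSC (77.1% of the 791 and 14.1% of the 4336) and 73 higher (9.23%).

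The share of signalling genes called, in either direction, differed by list. It ran from 8.33% (FGF pathway) to 31.8% (TGF-beta and YAP targets), against 9.11% of all genes tested. No test was made of these shares. Of 22 TGF-beta and YAP targets 7 fell and of 19 BMP response genes 6 (medians -1.12 and -0.73), 4 and 3 without d6_Eff replicate 2. Without MEF replicate 2, 15 and 8 fell and 2 and 1 rose. Smad7, an inhibitor induced by both pathways, fell from 15.0 and 17.2 to 4.99 and 3.41 CPM (log2 fold change -1.93 ± 0.27, adjusted p = 0.00102). Grem1, a secreted BMP antagonist, fell from 19.6 and 12.6 to 0.935 and 1.47 CPM (log2 fold change -3.76 ± 0.43, adjusted p = 4.95e-04). The days did not overlap in either.

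Of 14 genes of the Nodal pathway, which sustains the epiblast, 4 rose, 2 without d6_Eff replicate 2. The coreceptor gene Tdgf1 rose from 0.390 and 0.520 to 3.83 and 5.81 CPM (adjusted p = 6.64e-04) and the transcription factor gene Foxh1 from 0.520 and 0 to 6.86 and 7.93 CPM (adjusted p = 0.00431). The ligand gene Nodal, at 11.8 and 11.2 CPM on day 3 and 22.8 and 23.5 CPM on day 6 (adjusted p = 0.0331), kept its call in 0 of 4 refits (0.142 to 0.198). Of 33 Wnt pathway genes 3 rose and 1 fell, 2 and 0 without d6_Eff replicate 2 and 4 and 2 without MEF replicate 2. In the Wnt list 12.1% were called, against 9.11% of all genes tested. Sfrp1, a secreted antagonist, rose from 82.5 and 69.9 to 288 and 265 CPM and Wnt5a, a ligand, from 6.72 and 3.38 to 25.7 and 20.4 CPM (adjusted p = 0.00274 and 0.00325). The Wnt effectors Tcf7 and Lef1 moved in opposite directions (2.53 and -2.64 on the log2 scale, adjusted p = 0.0101 and 0.00959), with calls in 1 and 2 of 4 refits (0.0300 to 0.0997 and 0.0314 to 0.0923). Of 24 FGF pathway genes the growth factor gene Fgf7 and the receptor gene Fgfr3 fell (adjusted p = 0.0340 and 0.0239), with calls in 1 and 1 refits (0.0289 to 0.233 and 0.0343 to 0.185).

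Of 27 receptor tyrosine kinases and ligands 3 rose and 4 fell, 3 and 2 without d6_Eff replicate 2. Erbb3, a neuregulin receptor, rose from 0.564 and 0.468 to 34.7 and 27.6 CPM (log2 fold change 5.89 ± 0.57, adjusted p = 1.27e-04), and the ephrin receptor gene Epha1 from 1.43 and 0.728 to 19.8 and 14.4 CPM (adjusted p = 0.00226). Kit, the stem cell factor receptor, rose from 0.911 and 0 to 6.77 and 3.94 CPM (adjusted p = 0.0136), with a call in 3 of 4 refits (0.00167 to 0.0790). Met, the hepatocyte growth factor receptor, fell from 72.9 and 51.2 to 11.1 and 7.93 CPM (adjusted p = 1.37e-04). Of 20 AP-1, Runx and Tead factors, which act at enhancers of somatic cells, 5 fell, 2 without d6_Eff replicate 2. Runx2, a factor of bone, fell from 11.8 and 9.05 to 0.846 and 0 CPM and Cebpd, of inflammation and fat, from 130.2 and 165 to 49.0 and 50.2 CPM (adjusted p = 0.00360 and 7.10e-04). Runx1 (adjusted p = 0.00919) kept its call in 2 of 4 refits (0.00631 to 0.0684).

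Genes of mitosis, DNA replication, ribosomes and respiration were rarely called, against 9.11% of all genes tested. By edgeR 0 of 30 mitosis genes, 0 of 30 ribosome biogenesis genes and 0 of 33 oxidative phosphorylation genes passed. At an unadjusted p under 0.05 there were 2, 0 and 0, and DESeq2 and limma-voom also called 0. Their medians were -0.04, 0.04 and -0.01 on the log2 scale. A fit of the 4 Eff libraries alone called 1 oxidative phosphorylation gene higher. Leaving out MEF replicate 2 gave calls in the mitosis and oxidative phosphorylation lists. Of 30 DNA replication genes Rrm1, a ribonucleotide reductase subunit, fell from 1027 and 914 to 559 and 513 CPM (adjusted p = 0.00755, with a call in 2 of 4 refits, 0.0315 to 0.118). Of 30 CDK inhibitors, D cyclins and p53 targets 6 fell and 1 rose (23.3% called). Without d6_Eff replicate 2, 0 fell and 0 rose. Cdkn1a, which encodes p21, stood at 427 and 405 CPM on day 3 and 286 and 248 CPM on day 6 (adjusted p = 0.0259, called in 0 of 4 refits, 0.0720 to 0.274).

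Of 22 glycolysis and lactate genes 5 rose and 2 fell, and of 24 serine, threonine and one-carbon genes 4 rose; without d6_Eff replicate 2, 2 and 2 rose and 0 glycolysis genes fell, against 4 that fell without MEF replicate 2. Slc16a3, a lactate exporter, rose from 0.217 and 0.520 to 6.59 and 4.29 CPM (adjusted p = 1.22e-04) and Slc2a3, a glucose transporter, from 142 and 103 to 298 and 269.7 CPM (adjusted p = 0.00306). Amt, part of the glycine cleavage system, rose from 1.13 and 1.46 to 30.9 and 26.8 CPM (log2 fold change 4.48 ± 0.42, adjusted p = 1.08e-04). Day 6 lay above day 3 in all 3.

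Of 18 DNA methylation genes 2 rose (11.1%, against 9.11% of all genes tested called in either direction). Tet1, which oxidises methylated cytosine, rose from 4.34 and 3.07 to 36.0 and 39.0 CPM (log2 fold change 3.33 ± 0.21, adjusted p = 1.31e-05), to 11.0% of the iPSC mean. Of 33 Polycomb genes 1 fell (3.03%), and of 37 histone demethylases, remodellers and chaperones 1 fell (2.70%). Both shares are below the 9.11% of all genes tested. Pcgf5, a subunit of a Polycomb complex, fell from 50.1 and 46.9 to 24.5 and 24.5 CPM (adjusted p = 0.00641), with a call in 2 of 4 refits (0.0362 to 0.0684). Suv39h1, a histone H3 methyltransferase gene of the other list, fell from 80.7 and 90.7 to 53.6 and 49.1 CPM (adjusted p = 0.0199), with a call in 0 of 4 refits (0.0691 to 0.177). Without MEF replicate 2, 5 Polycomb genes fell and 2 rose, and in the other list 3 fell and 6 rose. Of 27 imprinted genes 5 fell, 2 without d6_Eff replicate 2. H19, a noncoding RNA, fell from 15775 and 20237 to 3476 and 2760.2 CPM (log2 fold change -2.53 ± 0.29, adjusted p = 3.44e-04), and Ndn, a MAGE family gene, from 29.8 and 29.9 to 7.17 and 9.16 CPM (adjusted p = 2.20e-04). Igf2, the growth factor gene next to H19, fell from 3754 and 3549 to 1354 and 1107 CPM (adjusted p = 0.0101), with a call in 1 of 4 refits (0.0408 to 0.112).

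Of 30 chemokines and inflammatory factors 4 fell and 3 rose, 3 and 1 without d6_Eff replicate 2. The risers were the protease inhibitor gene Serpine2 (log2 fold change 1.17, adjusted p = 0.00407), the prostaglandin E synthase gene Ptges (1.17, 0.0106) and the matrix protease gene Mmp3, which went from no counts to 0.846 and 0.529 CPM (0.0232). They kept their calls in 2, 0 and 0 of 4 refits (0.0195 to 0.0567, 0.0558 to 0.1003 and 0.0508 to 0.120). The monocyte-attracting chemokine genes Ccl2 and Ccl7 fell from 25.3 and 21.5 to 1.51 and 1.82 CPM and from 40.9 and 43.1 to 4.77 and 2.35 CPM, and the leukocyte adhesion gene Vcam1 from 62.4 and 42.2 to 6.15 and 3.00 CPM (adjusted p = 2.29e-04, 2.46e-04 and 2.06e-04). In the interferon and antigen presentation list 8.82% were called, near the 9.11% of all genes tested. Of 34 interferon and antigen presentation genes 2 rose and 1 fell, 1 and 0 without d6_Eff replicate 2 and 3 and 3 without MEF replicate 2. The class I gene H2-K1 rose from 21.2 and 20.4 to 67.8 and 79.1 CPM (adjusted p = 1.82e-04) and H2-D1 fell from 39.9 and 35.9 to 21.1 and 16.6 CPM (adjusted p = 0.0198, called in 1 of 4 refits, 0.0366 to 0.172). These are close paralogues, whose reads the counting could have split.

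Markers of fibroblasts and of other cell types were read beside these changes. The summed level of 9 fibroblast markers was 5099 and 4753 CPM on day 3. On day 6 it was 704 and 462 CPM, against 116 and 115 CPM in iPSC. Vim alone stood at 4877 and 4586 CPM on day 3 and 540.4 and 376 CPM on day 6. The fall of the sum is thus mostly that of Vim and says little of the other markers. The summed level of 7 pluripotent markers was 10.8 and 7.90 and then 201 and 193 CPM. In iPSC it was 7589 and 8008 CPM, and Dppa4 was at 0 in the Eff libraries.

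Of 12 trophoblast genes 5 rose and 1 fell (6 and 2 without MEF replicate 2), and the summed list went from 67.4 and 74.1 to 304 and 355 CPM. Krt8, Tfap2c and Krt18 were the most abundant, of which the keratins Krt8 and Krt18 are also epithelial genes. Cdx2 and Hand1, defining genes of trophoblast, were at 0. The keratinocyte list went from 212 and 208 to 309.9 and 409.5 CPM, with Krt15, Krt1 and Ivl at 0. Col17a1, a hemidesmosome collagen, rose from 2.99 and 1.61 to 46.8 and 73.5 CPM and Sfn, an epithelial signalling adaptor, from 5.55 and 2.96 to 26.4 and 44.2 CPM (adjusted p = 2.96e-04 and 5.16e-04). The part of such cells in the epithelial rise was not tested.

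Pax7, a factor of muscle satellite cells, rose from 3.56 and 2.70 to 60.7 and 57.6 CPM (log2 fold change 4.23 ± 0.35, adjusted p = 8.42e-05), and Des, a muscle intermediate filament gene, from 0.694 and 0.0520 to 11.9 and 10.5 CPM (adjusted p = 3.61e-04). Myog, Myf5 and Myf6, some of the defining muscle factors, were at 0 on both days, and the iPSC mean of Pax7 was 0.0329 CPM. Of 7 tested muscle genes 2 rose and 0 fell, and 6 had a positive change (median log2 fold change 1.35). The summed muscle list went from 7.02 and 6.14 to 79.0 and 73.4 CPM. Olig1, a factor of neural cells, had no counts on day 3 and 2.72 and 2.17 CPM on day 6, at least 34.5-fold higher, while the summed neural list went from 329 and 311 to 268 and 245 CPM, with Gfap at 0. By edgeR 0 of 8 leukocyte, 0 of 11 primitive endoderm and 0 of 3 erythroid genes were called, with 3, 2 and 1 at an unadjusted p under 0.05 and 2, 2 and 0 by DESeq2, and limma-voom called 2, 2 and 1. The summed leukocyte list went from 263 and 264 to 208 and 207 CPM, led on day 6 by Laptm5, Cd68 and Cd74. The leukocyte genes Ptprc, Adgre1 and Spi1 were at 0. Of 11 endothelial genes 2 rose and 1 fell (median log2 fold change 1.57), 1 and 0 without d6_Eff replicate 2. The junction genes Esam and Cldn5 rose from 1.21 and 0.364 to 6.503 and 7.64 CPM and from 0.1301 and 0.468 to 5.92 and 5.81 CPM (adjusted p = 0.00962 and 0.0101), with calls in 2 and 3 of 4 refits (0.0171 to 0.0781 and 0.0313 to 0.0858). Tek, the angiopoietin receptor gene and the most abundant of the list, fell from 139 and 112 to 71.6 and 70.8 CPM (adjusted p = 0.0245), with a call in 0 of 4 refits (0.0506 to 0.195). The summed endothelial list went from 149 and 117 to 89.5 and 90.5 CPM, with Emcn at 0.

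The Sca1+ Ineff cells of the same days were compared in the same way. In them 518 genes were higher (3.19%) and 199 lower (1.23%) on day 6 than on day 3. The Eff and Ineff comparisons share no library. Of the 688 genes that rose in Eff cells, 257 also rose in Ineff cells (37.4% of the 688 and 49.6% of the 518) and 1 fell. Of the 791 that fell, 89 also fell in Ineff cells (11.3% of the 791 and 44.7% of the 199) and 10 rose.

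**Figure D5:**
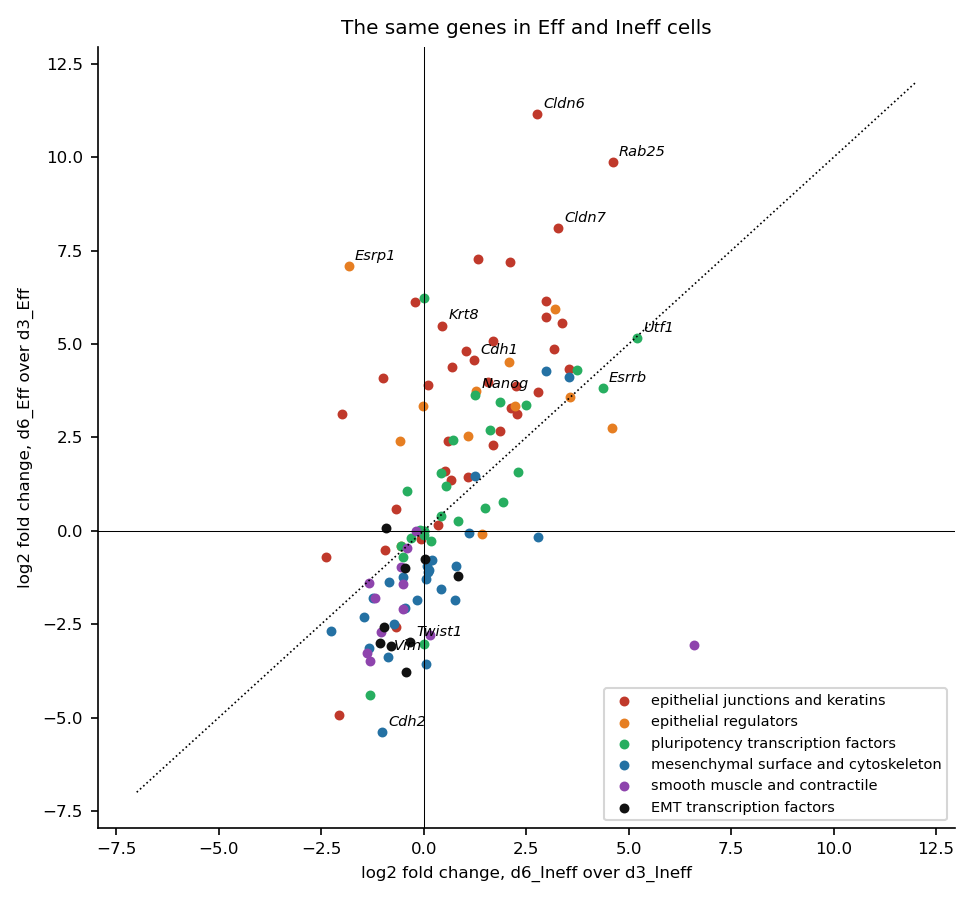
Log2 fold change from day 3 to day 6 in Ineff cells and in Eff cells for the tested members of 6 gene lists, with equal change on the dotted line. Esrp1 and Krt8 changed by 7.08 and 5.49 in Eff and by -1.83 and 0.46 in Ineff cells, and Vim by -3.37 and -0.88.

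The change itself differed between Eff and Ineff cells, by the interaction term, in 48 genes with a more positive change in Eff cells (0.296%) and 177 with a more negative one (1.09%). Leaving out MEF replicate 2 gave 406 and 905, and leaving out 1 of the 8 libraries compared gave 9 to 22 and 10 to 153, fewer in both directions for each library. Of the 39 named genes with a called difference, all 39 kept it without MEF replicate 2, and Esrp1, Epcam, Krt8, Krt18 and Cdh1 kept it in all 8 refits.

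In Ineff cells Esrp1 stood at 0.656 and 2.31 CPM on day 3 and 0.579 and 0.279 CPM on day 6, and the changes differed by 8.91 ± 0.79 on the log2 scale (adjusted p = 0.00156). Krt8 stood there at 11.9 and 11.7 and then 15.3 and 17.1 CPM (difference 5.04 ± 0.46, adjusted p = 0.00156). Cdh1 stood at 18.5 and 18.1 and then 43.4 and 42.6 CPM (difference 3.33 ± 0.33, adjusted p = 0.00231). In these genes the change was larger in Eff cells. Of the 37 junction and keratin genes 11 rose and 3 fell in Ineff cells, and the difference was called in 7. Of the 12 epithelial regulators 5 rose in Ineff cells, and the difference was called in 2. Cldn7 and Grhl2 also rose in Ineff cells (log2 fold change 3.28 and 3.21), without a called difference. Vim stood at 7706 and 7386 and then 4222 and 3980.1 CPM in Ineff cells (difference -2.49 ± 0.32, adjusted p = 0.00663, with a call in 5 of 8 refits, 0.0107 to 0.0711). Epcam stood at 5.34 and 5.07 and then 27.7 and 27.8 CPM in Ineff cells (log2 fold change 2.41, adjusted p = 0.00132), and the changes differed by 3.98 ± 0.40 (adjusted p = 0.00231). On day 6 the gates differed in EpCAM itself, and gate and cell state cannot be told apart.

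Nanog stood at 1.79 and 2.40 CPM on day 3 and 4.23 and 5.70 CPM on day 6 in Ineff cells. Its changes differed by 2.39 ± 0.51 (adjusted p = 0.0497), with a call in 1 of 8 refits (0.0303 to 0.272). Utf1 changed by 5.16 in Eff and 5.19 in Ineff cells on the log2 scale (difference -0.04 ± 0.40, adjusted p = 1.00), and Tet1 by 3.33 and 3.27 (difference 0.07 ± 0.29, adjusted p = 1.00). A p above the threshold does not show that the changes were alike. Esrrb stood at 13.4 and 13.5 CPM in d6_Ineff and at 2.49 and 3.64 CPM in d6_Eff.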

How the data were processed

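The 12 libraries of 6 groups were poly-A selected, made with a directional kit for RNA-seq and, per the file names, counted without strand. The authors deposited 1 table of raw read counts per gene and library. Per the submitters' processing notes STAR 2.3.0, Picard 1.100, HTSeq 0.6.0 and mm9 were used. Which gene annotation served the counting was not given in the sources used here. Rows of unassigned reads were left out of library sizes and tests. Of 37583 identifiers 32860 (87.4%) were matched to a symbol in GENCODE M21, and promoter windows come from RefSeq (GRCm38.p6).

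All 12 libraries were fitted together in edgeR 4.0.16 (R 4.3.3) with TMM scaling, its filter on low counts and the quasi-likelihood test with Benjamini-Hochberg adjustment over 16240 genes (threshold 0.05), which was tested on simulated data. Contrasts were d6_Eff against d3_Eff, the same in Ineff, their difference, and iPSC against MEF. DESeq2 1.42.0 and limma 3.58.1 served as alternatives, beside other scalings, filters and samples. The biological coefficient of variation was 28.0%, and a floor of 3 counts over a group bounds folds against no counts.

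Named genes are the 12 largest changes per direction at 5 CPM or more, 5 per direction for the difference, up to 3 called members per list and direction by adjusted p, the sorting and reprogramming genes, and members of the pluripotency factor and Hox lists. Other list members named with a fold change or share alone, and markers at 0, were chosen after their values were seen. Some genes that the rule picks are not reported here. The comparison, the 45 lists (1053 entries, 5 not matched) and the motif were chosen with earlier results of these data known. The number of columns from other series was 0.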

Additional observations from a re-analysis of the deposited data

Results flagged for a closer look

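The changes from day 3 to day 6 differed between Eff and Ineff cells, by the interaction term of edgeR's quasi-likelihood test, in 48 genes toward a more positive and 177 toward a more negative change in Eff cells. Each value below is the log2 change in Eff minus that in Ineff cells. Among epithelial genes it was 8.91 for Esrp1, 5.04 for Krt8, 3.79 for Krt18, 3.33 for Cdh1, 8.38 for Cldn6, 7.42 for Ap1m2, 3.68 for Erbb3 and 2.76 for Sfn. For Grb7 (10.38), Tmem54 (13.92), B4galnt3 (8.93) and Rbm47 (8.86), an RNA-binding splicing factor, it was also positive. Among Grb7, Tmem54 and other genes with few or no counts in a group, the fitted size is no bound. For the pluripotency factors Nanog and Nr0b1 the value was 2.39 and 1.48. The calls for Tmem54 and Nr0b1 were lost whichever of the 8 libraries compared was left out. The sorting genes gave 3.98 for Epcam, -2.23 for Ly6a and -2.75 for Nt5e, and the gates differ in these markers.

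Among mesenchymal and contractile genes the value was -2.49 for Vim, -4.37 for Cdh2, -1.78 for Axl, -2.29 for Prrx1, -2.65 for Twist1 and -1.66 for Actg2. The transcription factors Ebf1 and Cebpd had -2.72 and -1.52, and the TGF-beta inhibitor Smad7 had -2.13. The imprinted genes H19, Igf2 and Ndn had -2.08, -2.29 and -1.86. For the cell adhesion and chemokine genes Vcam1, Ccl7 and Jam2 it was -2.55, -2.37 and -3.002, and for the cystine transporter gene Slc7a11 -1.99. Of the remaining genes Tm4sf1 had -3.38, Dlk2 -2.51, Tgm3 -4.55, Slc6a17 -4.37, Wdr86 -6.86 and Ptprb, a vascular phosphatase gene, -8.45. Wdr86 rose in both, from 0.737 and 1.14 to 10.5 and 9.10 CPM in Eff cells. In Ineff cells it went from no counts to 8.34 and 7.14 CPM. Ptprb had no counts in d6_Eff, so both fitted sizes are no bounds. The calls for Ptprb, Slc6a17, Actg2, Cebpd, Igf2 and H19 were lost whichever of the 8 libraries was left out. Leaving out 1 of the 8 libraries at a time left 7 to 29 of these 39 genes called, 7 without d3_Ineff replicate 1 or d6_Eff replicate 2.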

How the results depend on the processing

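Of the genes called in Eff cells, 0 changed sign in another setting. Which direction held more genes did depend on the setting, as with upper quartile scaling (798 higher and 719 lower). In Eff cells (688 higher, 791 lower) the other settings gave 679 and 527 with library totals alone, 1034 and 1135 without a filter on low counts, 1121 and 1170 by DESeq2, 281 and 221 with a tested fold over 2 (glmTreat), 1164 and 1192 with the share of reads outside genes as covariate, 1153 and 1290 from only the libraries compared and 1308 and 1571 without MEF replicate 2, a setting chosen after seeing the data. Leaving out 1 Eff library gave 328 to 430 higher and 291 to 568 lower. In Ineff cells (518 and 199), library totals alone gave 514 and 92, no filter 985 and 377, DESeq2 1062 and 572, limma-voom 839 and 381, glmTreat 123 and 16, the covariate 1250 and 879, only the libraries compared 1556 and 1018, and the fit without MEF replicate 2 1400 and 1170. Leaving out 1 Ineff library gave 84 to 183 higher and 19 to 28 lower. For the difference (48 and 177), library totals alone gave 30 and 104, no filter 180 and 652, DESeq2 236 and 597, glmTreat 9 and 16, the covariate 224 and 630, only the libraries compared 272 and 965, and the fit without MEF replicate 2 406 and 905. Leaving out 1 of its libraries gave 9 to 22 higher and 10 to 153 lower. For iPSC against MEF (4221 and 4336) glmTreat gave 2276 and 2722. The refits hold fewer samples and glmTreat asks a stricter question, but the cause of these differences in count was not tested. Of 145 named called genes, 94 kept their call in all 4 refits without 1 Eff library and 16 in none of them. Of these calls glmTreat lost 52, library totals alone 14, limma-voom 7 and no filter 4. The fit of only the libraries compared lost 4. DESeq2 (Ceacam19 and Prdm14) and upper quartile scaling lost 2 each, and the covariate 1. RLE scaling, the stricter filter and leaving out MEF replicate 2 lost 0.

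The fit with a replicate block gave 670 higher and 793 lower in Eff cells, 483 and 166 in Ineff cells, 44 and 170 for the difference and 4100 and 4221 for iPSC against MEF. It lost 2 of the 145 named calls. Deviations of same-numbered libraries correlated at 0.194 between the Eff days and -0.0708 between the Ineff days (r across 11276 genes, which are not independent replicates). Over the 15 pairs of groups r ran from -0.232 to 0.494 and was over 0.1 in 7, so the numbers were not taken to pair the samples. Whether some libraries share a culture or day is not given in the labels. With 2 libraries a group and shared spread, small changes and genes with few counts are the least certain.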
